A study of Mus musculus with 9 samples.

Results

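The enzymes and carriers of fatty acid uptake and beta-oxidation were followed in mouse gastrocnemius muscle as a set of 33 genes, chosen by symbol for their role and found as 33 of the 23238 gene symbols in the count tables. All 33 passed the filter on low counts, among 12859 genes tested. Messenger RNA was measured with Lexogen QuantSeq, in which a transcript yields a single tag from its 3′ end. The muscles came from female mice of the inbred strain C57BL/6, aged 4 weeks per the labels, in 3 groups of 3 libraries. The RP group had 4 injections of cisplatin at 3 mg/kg, a platinum chemotherapy known to waste muscle, together with 100 mg/kg RP by mouth over 9 days. RP is not spelled out in the labels, and the series title names an extract of the peony Paeonia lactiflora. Mice of the Cisplatin group had the same injections with water by mouth. The Normal group had saline injections and water by mouth. Animals on RP alone are not among the groups, so what RP does by itself cannot be told apart from what it does to the cisplatin response.

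Muscle takes up fatty acids released from circulating lipoproteins, joins them to coenzyme A, carries them into mitochondria as carnitine esters and shortens them in a repeating cycle of dehydrogenation, hydration, dehydrogenation and thiolysis. Electrons from the first dehydrogenation pass through a flavoprotein chain to the respiratory chain, and entry into mitochondria is held back by malonyl-CoA. In fasting or wasting muscle many of these genes are known targets of the PPAR nuclear receptors, which bind direct repeats of a short DNA element together with an RXR partner.

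Library totals ran from 9178613 to 9826089 counts in RP, 8352397 to 10678342 in Cisplatin and 8196030 to 8677236 in Normal. The 33 genes together took 0.632 to 0.777% of counts in RP, 0.804 to 0.984% in Cisplatin and 0.595 to 0.855% in Normal. Levels are CPM, counts brought to a common library size with TMM, the scaling of edgeR; they are not divided by gene length, since a transcript gives 1 tag. Fold changes are log2 estimates ± SE of edgeR's quasi-likelihood test with Benjamini-Hochberg adjusted p over all genes tested, and a gene is called at an adjusted p under 0.05. The labels name separate samples without stating that each is its own mouse, so the p-values rest on the spread between the libraries, which may be technical. The muscle markers Ckm, Acta1, Mylpf, Tnnt3, Pvalb and Actn3 were abundant in each library, with sums of 72659 to 88176.5 CPM in RP, 43583 to 50547 CPM in Cisplatin and 69384 to 81532 CPM in Normal.

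In Cisplatin against Normal, 13 of the 33 genes rose, 6 fell and 14 were not called. The median log2 fold change was 0.33 over the 33 genes and -0.08 over all genes tested. With 57.6% of the members called against 54.5% of all genes, the share of calls was near the background (26.3% of all genes were called higher and 28.2% lower). Of the 33 members, 6 were called with an absolute log2 change of at least 1, against 30.9% of all genes tested. The groups did not overlap for 18 of the 33 members, against 62.2% of all genes. Normal replicate 3 weighs on these counts: it was the highest Normal library for 28 of the 33 members, against 32.2% of all genes, and without it 19 members rose and 3 fell.

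In RP against Cisplatin, 11 members fell, 3 rose and 19 were not called, with a median of -0.28 over the members and 0.07 over all genes. The members called were 42.4%, against 48.8% of all genes (24.2% lower and 24.6% higher). Of the members, 7 were called with an absolute log2 change of at least 1, against 25.4% of all genes, and 19 had groups that did not overlap, against 56.8%. Both comparisons share the Cisplatin libraries, so opposite signs in them are not independent. In RP against Normal, edgeR called 0 of 33 members, against 0.505% of all genes (0.187% higher and 0.319% lower). With edgeR 3 members (Eci2, Mlycd and Lpl) had an unadjusted p under 0.05, against 12.8% of all genes. There limma-voom called 0 members and DESeq2 called 2. RP and Normal did not overlap for 2 of the 33 members (Mlycd and Eci2), against 19.2% of all genes.

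**Figure D1:**
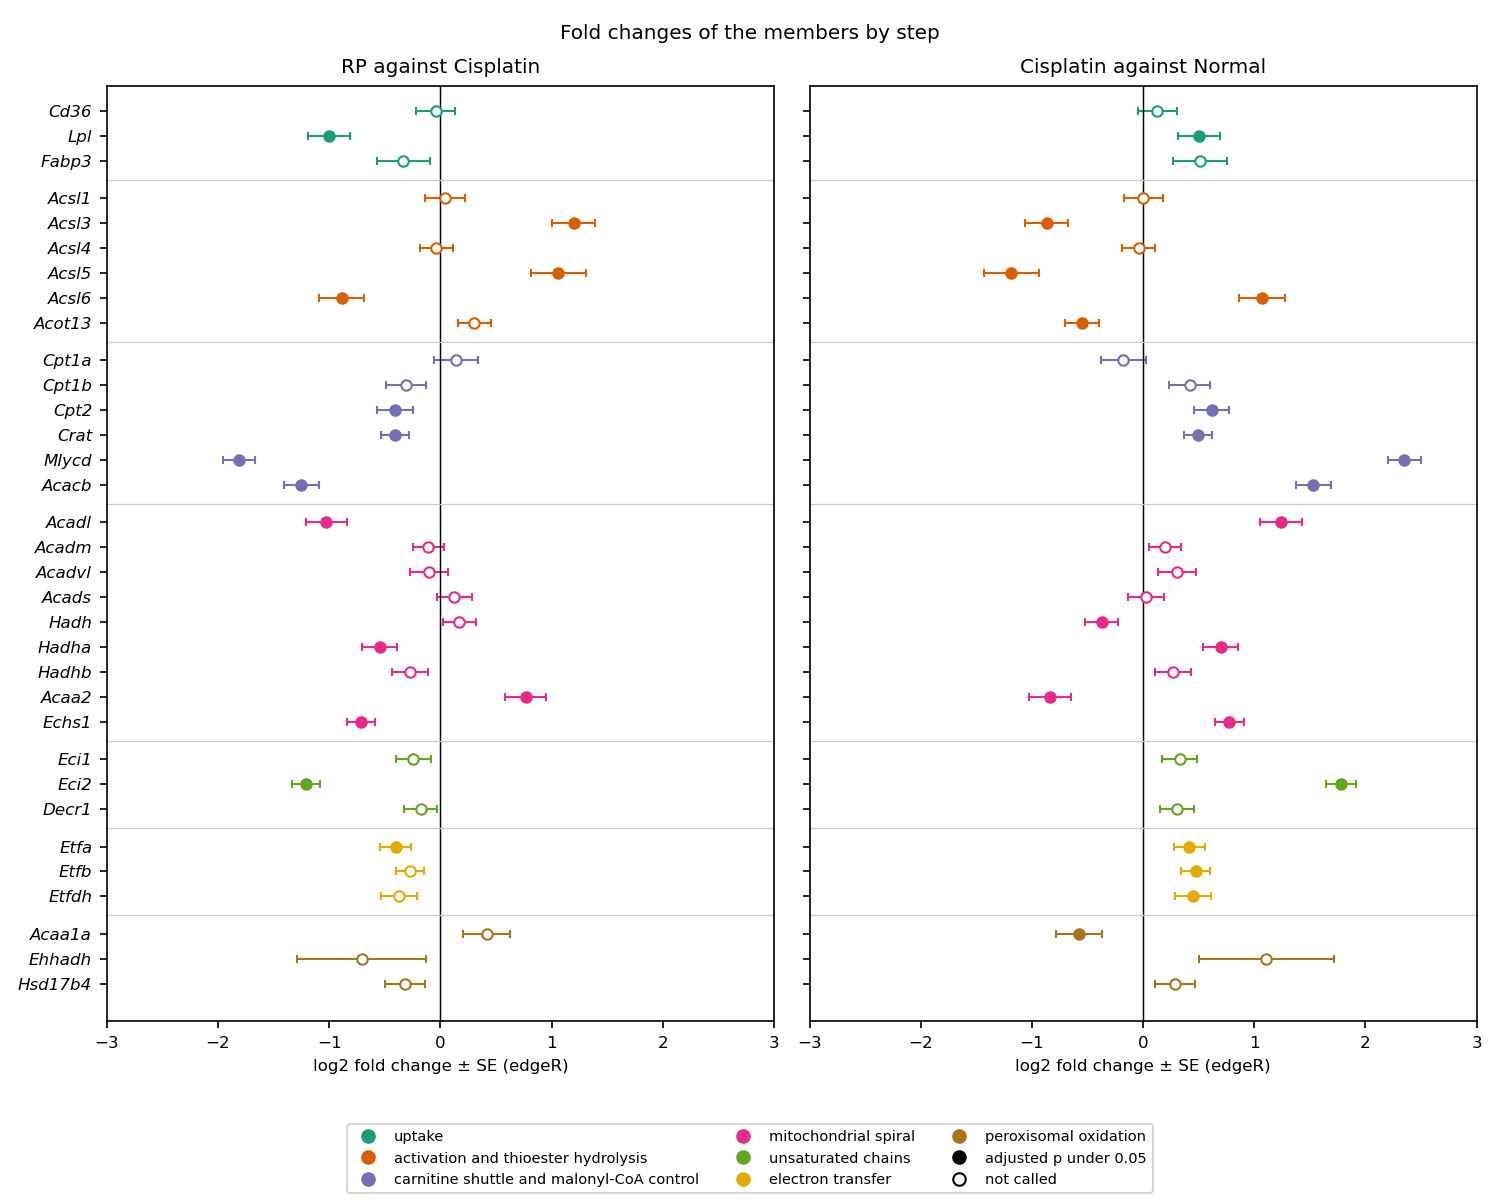
Log2 fold change ± SE of each of the 33 genes by step, with RP against Cisplatin on the left and Cisplatin against Normal on the right; filled points are called at an adjusted p under 0.05. In Cisplatin against Normal the points farthest right are Mlycd, Eci2, Acacb and Acadl, and those 4 lie left of 0 in RP against Cisplatin, where Acsl3 and Acsl5 lie farthest right.

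Of the 3 uptake genes, Lpl alone was called, in both comparisons with Cisplatin. That is 33.3%, against 54.5% of all genes in Cisplatin against Normal and 48.8% in RP against Cisplatin. Lpl, the lipoprotein lipase that frees fatty acids from circulating triglyceride, had 926, 1225 and 1197 CPM in RP, 2116, 2472 and 2122 CPM in Cisplatin and 1186, 1573 and 1975 CPM in Normal. Each Cisplatin library lay above each RP and each Normal library, and RP overlapped Normal. Lpl rose by 0.50 ± 0.18 in Cisplatin against Normal (adjusted p = 0.0334) and fell by 1.0 ± 0.19 on the log2 scale in RP against Cisplatin (adjusted p = 0.000629). The rise was lost without Normal replicate 1 (0.34, adjusted p = 0.149), Normal replicate 2 (adjusted p = 0.0692) or Cisplatin replicate 2 (adjusted p = 0.104). It was also lost with library size as the only scaling (adjusted p = 0.064) and with a floor of 5 CPM in 3 or more libraries (adjusted p = 0.0598). Cd36, a fatty acid translocase of the cell surface, had 269.7, 271 and 339 CPM in RP, 319, 328 and 258 CPM in Cisplatin and 204, 301 and 323 CPM in Normal, and its groups overlapped (log2 0.13 ± 0.18 in Cisplatin against Normal, adjusted p = 0.565).

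Fabp3, the fatty acid binding protein of heart and muscle cytosol, had 622, 796 and 1098 CPM in RP, 941, 1185 and 1047 CPM in Cisplatin and 586, 583 and 1054 CPM in Normal. Replicate 3 was the highest library in both RP and Normal and lay within the Cisplatin range, so the groups overlapped. Fabp3 was not called (0.51 ± 0.24, adjusted p = 0.0854), but was called higher in Cisplatin with DESeq2 (adjusted p = 0.0489), without the filter on low counts (adjusted p = 0.0304) and without Normal replicate 3 (0.87, adjusted p = 0.00528). The final exon of Fabp3 overlaps that of Zcchc17 on the opposite strand, and the strand setting of the counting is not given in the sources used here.

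Acyl-CoA synthetases, which join fatty acids to coenzyme A, moved in different directions within the family. Acsl1, the synthetase that held 61.4 to 74.6% of the family's counts in each of the 9 libraries, had 246, 341 and 354 CPM in RP, 286, 353 and 274 CPM in Cisplatin and 237, 322 and 352 CPM in Normal. Its groups overlapped throughout (log2 0.0035 ± 0.18 in Cisplatin against Normal, adjusted p = 0.989). Acsl4, which prefers arachidonate, likewise differed by less than its spread, with means of 46.4 ± 5.63 CPM in RP, 47.5 ± 6.25 CPM in Cisplatin and 48.9 ± 4.86 CPM in Normal (SD, n = 3 each).

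Acsl3 and Acsl5 fell in Cisplatin. Acsl3, found on the endoplasmic reticulum and lipid droplets, had 74.5, 71.0 and 57.4 CPM in RP, 25.7, 29.3 and 33.3 CPM in Cisplatin and 52.4, 69.2 and 39.5 CPM in Normal. The Cisplatin libraries were the 3 lowest. Its log2 fold change was -0.87 ± 0.19 in Cisplatin against Normal (adjusted p = 0.0019) and 1.20 ± 0.19 in RP against Cisplatin (adjusted p = 0.000216). Acsl5, a synthetase of mitochondria and endoplasmic reticulum, had 7.96, 12.5 and 12.0 CPM in RP, 5.99, 4.37 and 5.23 CPM in Cisplatin and 12.8, 9.37 and 13.2 CPM in Normal. Its changes were -1.18 ± 0.25 in Cisplatin against Normal (adjusted p = 0.0013) and 1.06 ± 0.25 in RP against Cisplatin (adjusted p = 0.00326), on 44 to 126 counts per library.

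Acsl6 rose where Acsl3 and Acsl5 fell. It had 30.8, 31.1 and 25.6 CPM in RP, 44.1, 42.5 and 75.5 CPM in Cisplatin and 27.8, 25.7 and 23.8 CPM in Normal. Cisplatin replicate 3 stood well above the other Cisplatin libraries, and all 3 Cisplatin libraries lay above the other 6. The log2 fold change was 1.07 ± 0.20 in Cisplatin against Normal (adjusted p = 0.000637) and -0.89 ± 0.20 in RP against Cisplatin (adjusted p = 0.00266). The value in RP against Cisplatin was -0.58 without Cisplatin replicate 3 (adjusted p = 0.00771). As a share of the family's counts Acsl6 was 5.19 to 7.68% in RP, 8.80 to 17.3% in Cisplatin and 5.04 to 7.25% in Normal, while Acsl3 was 11.6 to 18.6% in RP, 6.06 to 7.64% in Cisplatin and 8.35 to 14.5% in Normal. Acot13, a thioesterase that splits acyl-CoA, averaged 416 ± 26.9 CPM in RP, 337 ± 37.1 CPM in Cisplatin and 492 ± 96.6 CPM in Normal (SD, n = 3 each). It fell by 0.55 ± 0.15 on the log2 scale in Cisplatin against Normal (adjusted p = 0.00786), a call lost without Normal replicate 3 (-0.36, adjusted p = 0.0516).

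Promoter sequences were read from the RefSeq table for GRCm38.p6, which gives 250 bases before and 50 after a start site, and 26 of the 33 members had at least 1 such window (29 windows). Searches on both strands covered AGGTCANAGGTCA, the direct repeat bound by PPAR and RXR, with at most 2 mismatches; TCAAGGTCA, the element of the ERR receptors, with at most 1; and GTAAACA, the FoxO core, with none. The repeat was in 3 of the 29 member windows (Cd36, Echs1 and Etfa; 10.3%), against 3.86% of 32817 windows of all genes. The ERR element was in 2 of the 29 (Acsl6 and Acsl5; 6.90%), against 7.46% of all windows, and the FoxO core in 0, against 3.65%. Both receptor motifs hold AGGTCA, so their matches can overlap. A match is only a description of these letters. The first window of Acsl6, at chr11:54303574-54303873 on the plus strand, held 3 ERR matches on the minus strand and is shown because it was the member window with the most matches; capitals mark them.
Acsl6: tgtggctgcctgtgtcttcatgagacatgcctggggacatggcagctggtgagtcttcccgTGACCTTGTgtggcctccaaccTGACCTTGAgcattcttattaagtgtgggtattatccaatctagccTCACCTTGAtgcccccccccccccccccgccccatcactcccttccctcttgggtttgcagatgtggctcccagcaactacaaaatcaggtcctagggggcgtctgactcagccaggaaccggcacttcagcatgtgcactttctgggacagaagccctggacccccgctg

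Among the 6 genes of the carnitine shuttle and its malonyl-CoA control, 4 rose in Cisplatin against Normal and the same 4 fell in RP against Cisplatin. That is 66.7% called in each, against 54.5% and 48.8% of all genes, and both comparisons share the Cisplatin libraries. Mlycd and Acacb have opposed roles: Mlycd, malonyl-CoA decarboxylase, destroys malonyl-CoA, and Acacb, the acetyl-CoA carboxylase of the mitochondrial surface, makes it. Mlycd had 114, 103 and 115 CPM in RP, 404, 346 and 414 CPM in Cisplatin and 62.4, 81.2 and 84.6 CPM in Normal. Each Cisplatin library stood far above each RP library, and each RP library exceeded each Normal library. RP and Normal did not overlap for 19.2% of all genes. The log2 fold change was 2.35 ± 0.15 in Cisplatin against Normal, a 5.10-fold rise (adjusted p = 7.75e-08), -1.81 ± 0.14 in RP against Cisplatin (adjusted p = 7.52e-07) and 0.54 ± 0.14 in RP against Normal (adjusted p = 0.123). With DESeq2 the difference between RP and Normal was called (adjusted p = 0.036). Its gene lies at chr8:119394878-119411102 on the plus strand (GENCODE M21, GRCm38), and the window around its start, shown as that of the largest riser, held none of the 3 motifs.
Mlycd: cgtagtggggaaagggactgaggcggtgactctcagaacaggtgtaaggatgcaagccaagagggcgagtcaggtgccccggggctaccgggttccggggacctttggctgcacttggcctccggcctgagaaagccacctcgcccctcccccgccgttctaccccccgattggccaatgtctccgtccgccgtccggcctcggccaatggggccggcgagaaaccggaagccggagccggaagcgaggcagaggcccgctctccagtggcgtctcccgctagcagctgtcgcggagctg

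Acacb had 111, 110.4 and 131 CPM in RP, 275, 285 and 280.2 CPM in Cisplatin and 75, 96.2 and 119 CPM in Normal. The Cisplatin libraries were close together and clear above the other 6, and RP overlapped Normal. Its log2 fold change was 1.53 ± 0.16 in Cisplatin against Normal (adjusted p = 4.20e-06), a 2.89-fold rise, and -1.25 ± 0.16 in RP against Cisplatin (adjusted p = 3.04e-05). Within a library, the log2 ratio of Mlycd to Acacb tags was 0.04, -0.11 and -0.19 in RP, 0.56, 0.28 and 0.56 in Cisplatin and -0.26, -0.25 and -0.50 in Normal. The ratio was thus highest in the 3 Cisplatin libraries and lowest in the 3 Normal libraries; this and the other ratios below were picked with the values known and are a description.

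The carnitine acyltransferases themselves moved less. Cpt1b, the muscle form of the outer-membrane enzyme that malonyl-CoA inhibits, had 172, 219 and 273 CPM in RP, 282, 293 and 247 CPM in Cisplatin and 195, 167 and 253 CPM in Normal. The groups overlapped, and Cpt1b was not called in Cisplatin against Normal (0.42 ± 0.18, adjusted p = 0.0659). It was called without Normal replicate 3 (0.61, adjusted p = 0.0165), with DESeq2 (adjusted p = 0.0476) and without the filter (adjusted p = 0.0378), and in RP against Cisplatin without RP replicate 3 (-0.50, adjusted p = 0.0466). GENCODE lists a second gene, Gm44502, over the 3′ end of Cpt1b on the same strand.

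Cpt1a, the liver form, was low, with 11.3, 12.9 and 12.4 CPM in RP, 9.63, 13.7 and 9.76 CPM in Cisplatin and 11.1, 13.5 and 12.9 CPM in Normal. It made up 4.35 to 6.15% of the Cpt1 counts in RP, 3.31 to 4.46% in Cisplatin and 4.85 to 7.49% in Normal. Cpt2, the enzyme of the inner membrane that reforms acyl-CoA, had 58.2, 81.9 and 82.2 CPM in RP, 92.6, 115 and 87.8 CPM in Cisplatin and 57.9, 65.0 and 70.0 CPM in Normal. Cisplatin lay above both other groups. Cpt2 rose by 0.62 ± 0.16 in Cisplatin against Normal (adjusted p = 0.00548) and fell by 0.41 ± 0.16 in RP against Cisplatin (adjusted p = 0.0479). The fall was lost without Cisplatin replicate 1 (adjusted p = 0.058), Cisplatin replicate 2 (adjusted p = 0.201) or RP replicate 1 (-0.26, adjusted p = 0.201). It was also lost with library size alone (-0.27, adjusted p = 0.21), the floor of 5 CPM (adjusted p = 0.0813) and the compared groups alone (adjusted p = 0.072). Crat, which moves acetyl groups between carnitine and coenzyme A, averaged 125 ± 16 CPM in RP, 167 ± 3.84 CPM in Cisplatin and 119 ± 9.57 CPM in Normal (SD, n = 3 each). It rose by 0.49 ± 0.13 in Cisplatin against Normal (adjusted p = 0.00500) and fell by 0.41 ± 0.13 in RP against Cisplatin (adjusted p = 0.0158), a fall lost without RP replicate 2 (adjusted p = 0.0743) or with library size alone (-0.27, adjusted p = 0.0792).

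**Figure D2:**
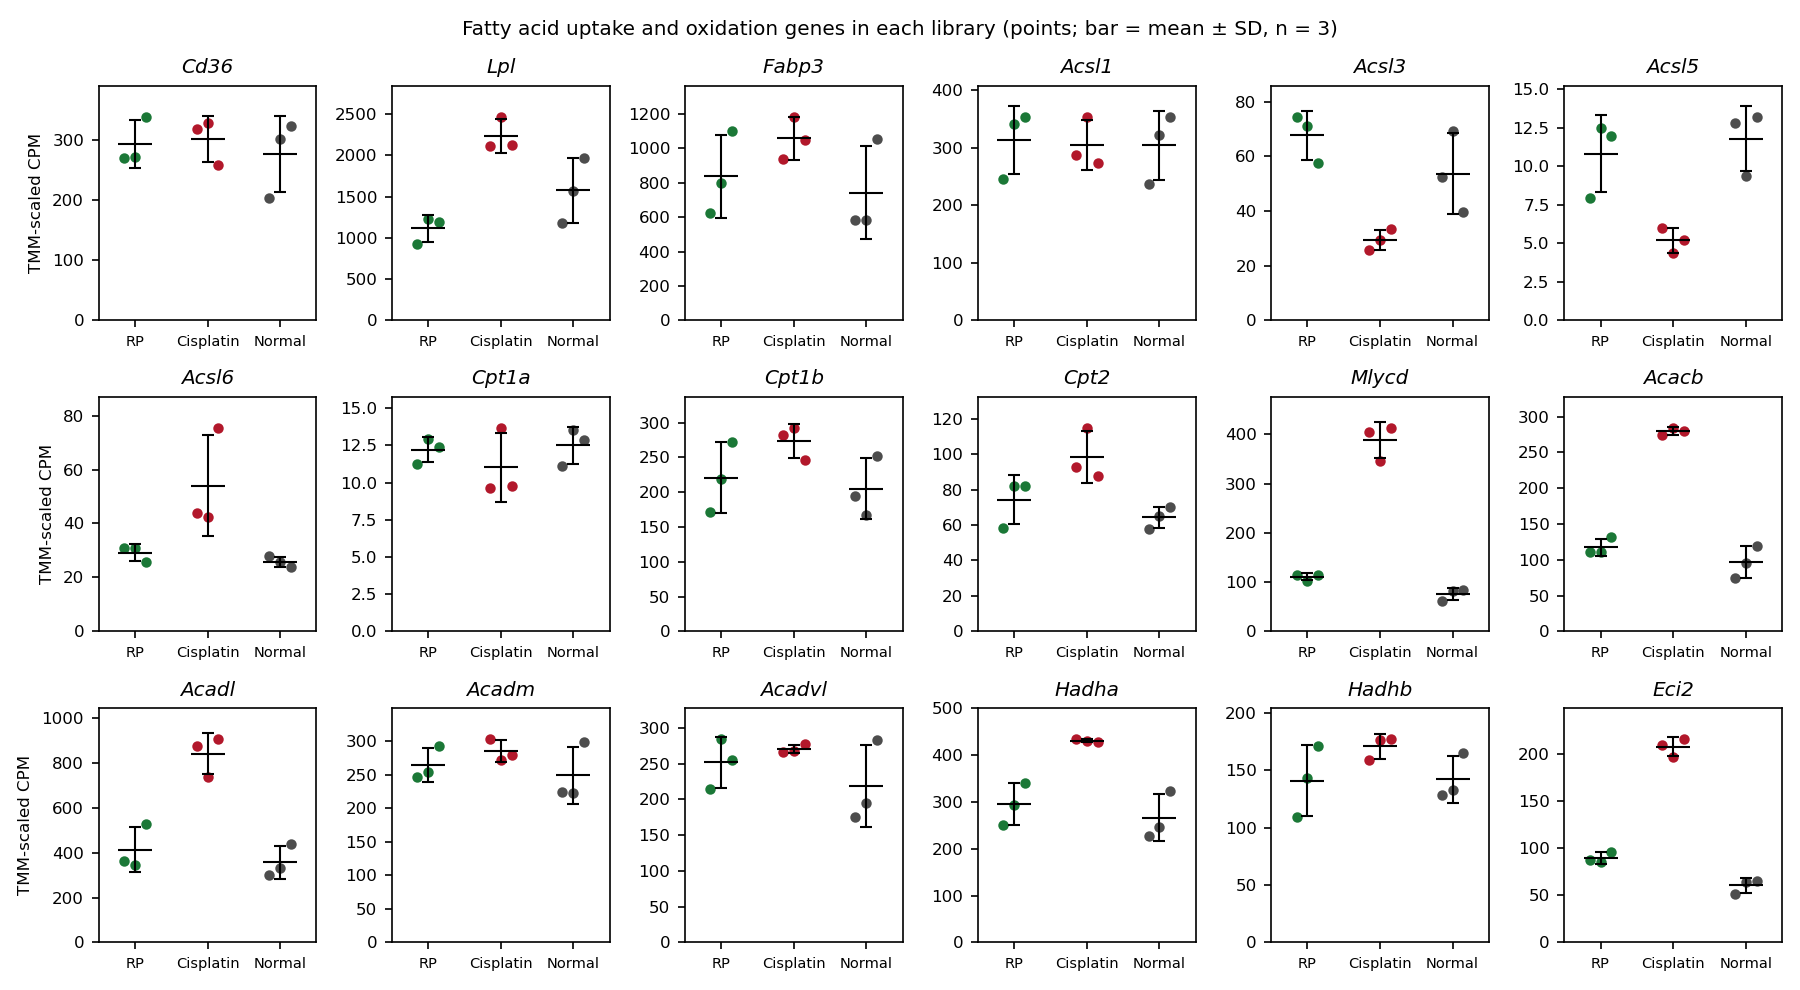
TMM-scaled CPM of 18 members in each library, on axes that start at 0, with RP, Cisplatin and Normal from left to right; points are libraries and bars the mean ± SD of 3. In Mlycd, Acacb, Acadl and Eci2 the 3 Cisplatin points stand clear above the other 6, while those of Acsl1, Acadm and Cd36 lie among them.

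In the mitochondrial cycle 3 of 9 enzymes rose in Cisplatin against Normal (Acadl, Hadha and Echs1), 2 fell (Acaa2 and Hadh) and 4 were not called. The share called was 55.6%, against 54.5% of all genes. Among the acyl-CoA dehydrogenases, which take the first step and are named for chain length, Acadl alone of the 4 was called in either comparison. Acadl, the long-chain enzyme, had 363, 347 and 529 CPM in RP, 876, 736 and 908 CPM in Cisplatin and 300.4, 330.0 and 439 CPM in Normal. Each Cisplatin library lay above each other library, and RP overlapped Normal. Its log2 fold change was 1.24 ± 0.19 in Cisplatin against Normal (adjusted p = 0.000103) and -1.02 ± 0.19 in RP against Cisplatin (adjusted p = 0.000563).

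The very long-chain enzyme Acadvl had 214, 285 and 256 CPM in RP, 266, 267 and 277 CPM in Cisplatin and 176, 195 and 283 CPM in Normal. Medium-chain Acadm had 246, 255 and 294 CPM in RP, 304, 272 and 280.2 CPM in Cisplatin and 225, 224 and 299 CPM in Normal. For both enzymes the groups overlapped, with log2 values of 0.31 ± 0.17 for Acadvl (adjusted p = 0.144) and 0.20 ± 0.14 for Acadm (adjusted p = 0.256) in Cisplatin against Normal. Without Normal replicate 3 both were called higher, Acadvl at 0.56 (adjusted p = 0.00823) and Acadm at 0.36 (adjusted p = 0.0436). Short-chain Acads averaged 64.8 ± 8.2 CPM in RP, 59.4 ± 8.85 CPM in Cisplatin and 58.4 ± 9.06 CPM in Normal (SD, n = 3 each), and its log2 value was 0.03 ± 0.16 in Cisplatin against Normal (adjusted p = 0.905). The log2 ratio of Acadl to Acadvl was 0.76, 0.28 and 1.05 in RP, 1.72, 1.46 and 1.71 in Cisplatin and 0.77, 0.76 and 0.63 in Normal, so the Cisplatin libraries again stood apart. The last 256 bases of an Acadvl transcript lie in Dvl2 on the opposite strand; Dvl2 had 48 to 91 counts in RP, 91 to 114 in Cisplatin and 43 to 58 in Normal, few beside Acadvl.

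Hadha and Hadhb encode the subunits of the mitochondrial trifunctional protein, which carries out the later steps for long chains. They lie head to head on chromosome 5 of GRCm38, Hadha at chr5:30118304-30155162 on the minus strand and Hadhb at chr5:30155248-30184593 on the plus strand, so that their annotated starts are 86 bases apart. The RefSeq window of Hadhb at chr5:30155003-30155302, shown because it spans both annotated starts, held none of the 3 motifs.
Hadhb: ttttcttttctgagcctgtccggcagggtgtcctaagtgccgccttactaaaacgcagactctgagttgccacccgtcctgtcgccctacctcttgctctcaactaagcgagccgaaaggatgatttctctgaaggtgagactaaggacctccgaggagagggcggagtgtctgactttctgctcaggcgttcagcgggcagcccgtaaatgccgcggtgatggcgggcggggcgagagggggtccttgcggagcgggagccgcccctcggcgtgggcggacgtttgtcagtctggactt

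Hadha had 251, 293 and 341 CPM in RP, 435, 431 and 427 CPM in Cisplatin and 228, 248 and 323 CPM in Normal. The Cisplatin libraries were close together and above each other library. Hadha rose by 0.70 ± 0.15 in Cisplatin against Normal (adjusted p = 0.00184) and fell by 0.55 ± 0.15 on the log2 scale in RP against Cisplatin (adjusted p = 0.00979), a fall lost without RP replicate 1 (adjusted p = 0.0533). Hadhb had 109, 143 and 171 CPM in RP, 158, 176 and 177 CPM in Cisplatin and 128, 132 and 165 CPM in Normal. Its groups overlapped and it was not called in Cisplatin against Normal (0.27 ± 0.16, adjusted p = 0.181) or in RP against Cisplatin (-0.28 ± 0.16, adjusted p = 0.174), but was called in RP against Cisplatin without RP replicate 3 (-0.44, adjusted p = 0.044). Within a library, the log2 ratio of Hadha to Hadhb was 1.21, 1.03 and 1.0 in RP, 1.46, 1.29 and 1.27 in Cisplatin and 0.83, 0.90 and 0.97 in Normal. The 3 Cisplatin ratios were the highest and the 3 Normal ratios the lowest. The end of Hadhb matches Gm13910 and Gm9108 over 166 bases, at 99.4% and 98.2% identity, the end of Hadha meets Garem2 on the opposite strand over 75 bases, and how the authors placed such reads is not given in the sources used here.

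Echs1, the enoyl-CoA hydratase for shorter chains, rose while the thiolase Acaa2 fell. Echs1 averaged 127 ± 1.30 CPM in RP, 209 ± 8.03 CPM in Cisplatin and 122 ± 17.4 CPM in Normal (SD, n = 3 each), with log2 fold changes of 0.78 ± 0.13 in Cisplatin against Normal (adjusted p = 0.000185) and -0.71 ± 0.13 in RP against Cisplatin (adjusted p = 0.000461). Acaa2, which releases acetyl-CoA in the last step, had 185, 252 and 209.7 CPM in RP, 123, 150.2 and 107 CPM in Cisplatin and 205, 183 and 293 CPM in Normal. Here the Cisplatin libraries were the 3 lowest, with changes of -0.84 ± 0.19 in Cisplatin against Normal (adjusted p = 0.00192) and 0.77 ± 0.19 in RP against Cisplatin (adjusted p = 0.00424). The log2 ratio of Acaa2 to Hadhb, which also has thiolase activity, was 0.77, 0.81 and 0.30 in RP, -0.36, -0.23 and -0.73 in Cisplatin and 0.68, 0.47 and 0.83 in Normal, below 0 only in the Cisplatin libraries. Hadh, the hydroxyacyl-CoA dehydrogenase for medium and short chains, averaged 243 ± 38.2 CPM in RP, 216 ± 10.9 CPM in Cisplatin and 280 ± 39.7 CPM in Normal (SD, n = 3 each). It fell by 0.37 ± 0.15 on the log2 scale in Cisplatin against Normal (adjusted p = 0.0455). The Hadh call was lost without Normal replicate 1 (adjusted p = 0.0672), Normal replicate 3 (-0.23, adjusted p = 0.222) or Cisplatin replicate 1, 2 or 3 (adjusted p = 0.086, 0.0734 and 0.126). It was also lost with RLE scaling (adjusted p = 0.0527), without Rn45s (adjusted p = 0.051) and without the filter (adjusted p = 0.0527).

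The Echs1 window at chr7:140116372-140116671 on the minus strand is shown with its PPAR repeat match in capitals, 83 bases before the start site and with 2 mismatches.
Echs1: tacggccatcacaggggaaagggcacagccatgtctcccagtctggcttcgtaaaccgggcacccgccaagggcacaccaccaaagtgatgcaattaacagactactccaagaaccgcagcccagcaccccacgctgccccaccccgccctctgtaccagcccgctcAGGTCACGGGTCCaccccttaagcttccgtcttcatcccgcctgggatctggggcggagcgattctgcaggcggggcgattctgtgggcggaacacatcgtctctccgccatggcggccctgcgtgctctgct

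**Figure D3:**
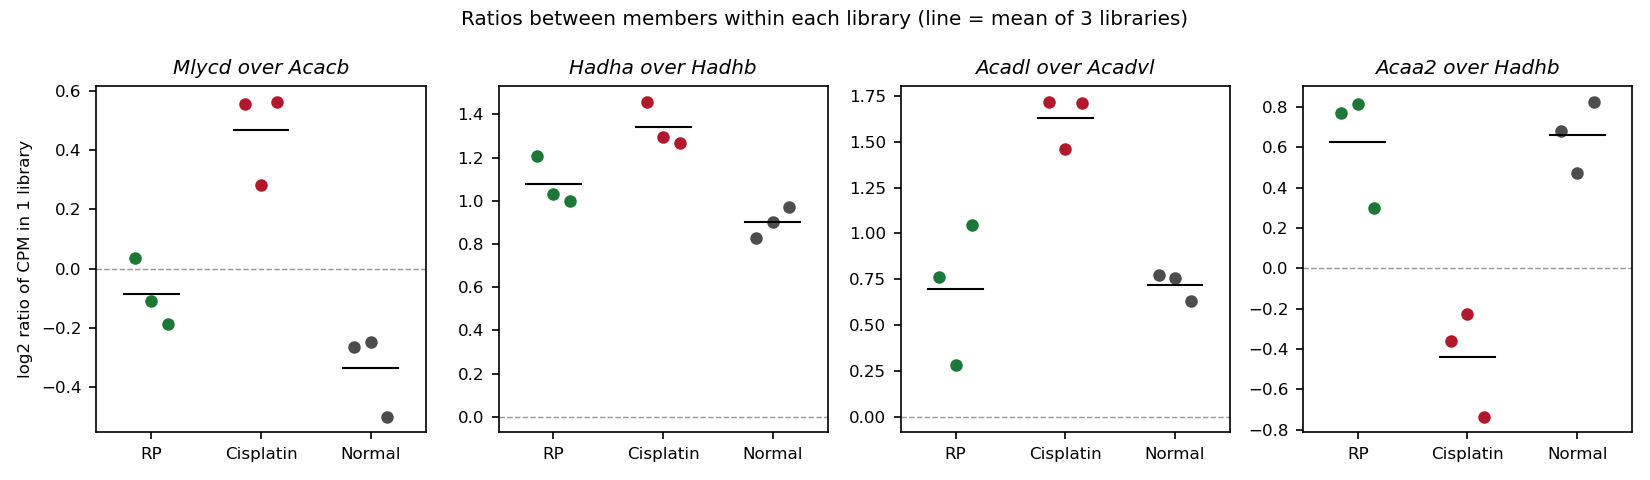
Log2 ratio of CPM between members of a pair in each library, with RP, Cisplatin and Normal from left to right and a line at each mean of 3. In each of the 4 pairs the 3 Cisplatin points do not overlap the other 6, and Acaa2 over Hadhb is the pair in which they lie lowest.

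Of the 3 enzymes that handle double bonds of unsaturated chains, Eci2 was called in both comparisons with Cisplatin and its partners were not called. That is 33.3%, against 54.5% of all genes in Cisplatin against Normal and 48.8% in RP against Cisplatin. Eci2, an enoyl-CoA isomerase of mitochondria and peroxisomes, had 87.8, 84.6 and 96.2 CPM in RP, 209.5, 196 and 216 CPM in Cisplatin and 51.3, 64.1 and 65.5 CPM in Normal. The 3 groups were separate, with Cisplatin highest and Normal lowest, where 19.2% of all genes had no overlap between RP and Normal. Its log2 fold change was 1.78 ± 0.13 in Cisplatin against Normal, a 3.43-fold rise (adjusted p = 2.38e-07), -1.21 ± 0.13 in RP against Cisplatin (adjusted p = 7.93e-06) and 0.57 ± 0.13 in RP against Normal (adjusted p = 0.0759). That last difference was called with DESeq2 (adjusted p = 0.0122), without the filter (adjusted p = 0.0321) and with library size alone (adjusted p = 0.0403). The end of Eci2 matches the related gene Eci3 over 256 bases at 96.5% identity, so reads may be shared, and the antisense gene Gm16984 overlaps it too. Eci3 was counted at 47 to 69 per library in RP, 150 to 161 in Cisplatin and 32 to 53 in Normal, and moved by 1.80 ± 0.25 in Cisplatin against Normal (adjusted p = 5.68e-05). The window of Eci2 at chr13:34994095-34994394 on the minus strand, that of the second largest riser, held none of the 3 motifs.
Eci2: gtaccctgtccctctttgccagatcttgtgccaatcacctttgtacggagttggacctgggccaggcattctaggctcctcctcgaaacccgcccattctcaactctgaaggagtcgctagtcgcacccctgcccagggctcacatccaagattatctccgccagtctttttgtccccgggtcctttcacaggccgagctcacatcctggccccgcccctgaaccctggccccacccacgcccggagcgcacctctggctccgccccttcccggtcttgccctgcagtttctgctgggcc

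Eci1, the mitochondrial isomerase, averaged 264 ± 9.15 CPM in RP, 313 ± 40.3 CPM in Cisplatin and 249 ± 55.3 CPM in Normal (SD, n = 3 each; 0.33 ± 0.16 in Cisplatin against Normal, adjusted p = 0.0918). Decr1, the dienoyl-CoA reductase, averaged 106 ± 11 CPM in RP, 120 ± 9.66 CPM in Cisplatin and 96.9 ± 18.9 CPM in Normal (0.30 ± 0.15, adjusted p = 0.0988). Without Normal replicate 3 both were called, Eci1 at 0.54 (adjusted p = 0.00842) and Decr1 at 0.49 (adjusted p = 0.0126). In RP against Cisplatin Eci1 was not called (-0.25 ± 0.16, adjusted p = 0.212). Its RP and Cisplatin libraries did not overlap, which held for 56.8% of all genes.

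All 3 genes of the electron transfer step rose by similar amounts in Cisplatin against Normal, where 54.5% of all genes were called and 26.3% were called higher. Etfa and Etfb encode the electron transfer flavoprotein and Etfdh the dehydrogenase that hands its electrons to ubiquinone. Etfa averaged 113 ± 11.3 CPM in RP, 149 ± 16.7 CPM in Cisplatin and 111 ± 14.6 CPM in Normal (SD, n = 3 each), with log2 changes of 0.42 ± 0.14 in Cisplatin against Normal (adjusted p = 0.0218) and -0.40 ± 0.14 in RP against Cisplatin (adjusted p = 0.0289). Etfb averaged 380 ± 18.9 CPM in RP, 458 ± 30.6 CPM in Cisplatin and 330 ± 37.0 CPM in Normal, and rose by 0.47 ± 0.13 in Cisplatin against Normal (adjusted p = 0.00634). The last 300 bases of an Etfb transcript match a Gm45233 transcript at 100% identity, although Gm45233 has no exon in the last 500 bases of the Etfb gene. In RP against Cisplatin the value for Etfb was -0.27 ± 0.13 (adjusted p = 0.0926). Etfdh averaged 71.9 ± 2.39 CPM in RP, 93.1 ± 6.62 CPM in Cisplatin and 68.3 ± 18.1 CPM in Normal, and rose by 0.45 ± 0.16 (adjusted p = 0.0319). Its Cisplatin and Normal libraries overlapped, with 87.1 CPM in Cisplatin replicate 3 and 89.2 CPM in Normal replicate 3. In RP against Cisplatin the value for Etfdh was -0.37 ± 0.16 (adjusted p = 0.0721), and it was called there with the compared groups alone (adjusted p = 0.0359).

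The Etfb call held in each alternative run, and those of Etfa and Etfdh did not. Etfa was not called in Cisplatin against Normal without Normal replicate 1 (adjusted p = 0.0977) or Cisplatin replicate 2 (adjusted p = 0.0911), nor in RP against Cisplatin without Cisplatin replicate 1 or 2 (adjusted p = 0.0585 and 0.116) or RP replicate 1 or 2 (adjusted p = 0.11 and 0.0764). Library size as the only scaling ended both Etfa calls (adjusted p = 0.0645 and 0.158), and the floor of 5 CPM ended that in RP against Cisplatin (adjusted p = 0.05003). Etfdh was not called in Cisplatin against Normal without Normal replicate 1 or 2 (adjusted p = 0.133 and 0.118) or Cisplatin replicate 1 or 2 (adjusted p = 0.0552 and 0.0966). Its call was also lost with library size alone (adjusted p = 0.0802), the floor of 5 CPM (adjusted p = 0.0608) and the compared groups alone (adjusted p = 0.0536). Etfdh moved by 0.70 without Normal replicate 3 (adjusted p = 0.0012). The window of Etfa at chr9:55512194-55512493 on the minus strand, shown for its repeat match on the opposite strand of the window (capitals, 77 bases before the start site, 2 mismatches), reads as follows.
Etfa: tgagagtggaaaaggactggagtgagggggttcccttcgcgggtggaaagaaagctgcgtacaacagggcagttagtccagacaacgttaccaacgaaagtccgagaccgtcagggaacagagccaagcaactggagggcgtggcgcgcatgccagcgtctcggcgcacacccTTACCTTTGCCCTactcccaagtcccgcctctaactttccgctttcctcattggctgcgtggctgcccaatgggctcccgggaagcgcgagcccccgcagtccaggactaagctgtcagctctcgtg

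Of the 3 peroxisomal members, 1 was called in Cisplatin against Normal (33.3%, against 54.5% of all genes). In RP against Cisplatin 0 were called, against 48.8% of all genes. Acaa1a, a peroxisomal thiolase, averaged 25.7 ± 3.70 CPM in RP, 19.2 ± 6.02 CPM in Cisplatin and 28.8 ± 2.15 CPM in Normal (SD, n = 3 each) and fell by 0.58 ± 0.21 on the log2 scale in Cisplatin against Normal (adjusted p = 0.0322). That call was lost without Normal replicate 2 or 3 (adjusted p = 0.0761 and 0.0967) or Cisplatin replicate 1 or 3 (adjusted p = 0.0589 and 0.13, with a value of -0.34 without Cisplatin replicate 3), and in RP against Cisplatin a rise was called without Cisplatin replicate 2 (0.65, adjusted p = 0.0286). Its end is 98.6% identical to that of Acaa1b over 282 bases, so the counts of both are uncertain; Acaa1b had 192 to 468 counts in RP, 35 to 223 in Cisplatin and 140 to 244 in Normal. Hsd17b4, the bifunctional enzyme of branched and very long chains, averaged 34.4 ± 6.35 CPM in RP, 43.0 ± 1.87 CPM in Cisplatin and 35.3 ± 7.66 CPM in Normal (0.28 ± 0.18 in Cisplatin against Normal, adjusted p = 0.194). Ehhadh, the other bifunctional enzyme, was low, with 10 to 22 counts per library in RP, 7 to 30 in Cisplatin and 5 to 12 in Normal. It was not called (1.11 ± 0.61 in Cisplatin against Normal, adjusted p = 0.137) except without Cisplatin replicate 3 (1.51, adjusted p = 0.0427).

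Other genes of fatty acid use, taken from 4 lists chosen by function, also moved in both directions. Among 17 other oxidation and thioester enzymes, 3 rose and 6 fell in Cisplatin against Normal (52.9% called, against 54.5% of all genes; median -0.47), and 2 fell and 6 rose in RP against Cisplatin (47.1%, against 48.8%). The acyl-CoA thioesterases Acot1 and Acot2 rose most. Acot1, of the cytosol, had 5.89, 4.67 and 6.86 CPM in RP, 232, 195 and 162 CPM in Cisplatin and 2.42, 4.86 and 5.90 CPM in Normal, with changes of 5.48 ± 0.26 in Cisplatin against Normal (adjusted p = 1.92e-08) and -5.08 ± 0.25 in RP against Cisplatin (adjusted p = 3.79e-08). Acot2, its mitochondrial relative, changed by 3.25 ± 0.22 in Cisplatin against Normal (adjusted p = 1.26e-07). Abcd2, a peroxisomal importer of fatty acyl-CoA, had means of 49.8 CPM in RP, 5.49 CPM in Cisplatin and 60.1 CPM in Normal, and fell by 3.44 ± 0.23 on the log2 scale in Cisplatin against Normal (adjusted p = 1.03e-07).

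Of 14 genes of lipid delivery, storage and transfer, 4 rose and 6 fell in Cisplatin against Normal (71.4% called, against 54.5%; median -0.46), and 3 fell and 6 rose in RP against Cisplatin (64.3%, against 48.8%). The triglyceride lipase Pnpla2 (1.95 ± 0.22, adjusted p = 9.69e-06) and Plin5, a coat protein of lipid droplets (2.20 ± 0.29, adjusted p = 3.31e-05), rose in Cisplatin against Normal. The binding protein Fabp5 (-2.56 ± 0.35, adjusted p = 4.57e-05) and the monoglyceride lipase Mgll (-1.09 ± 0.18, adjusted p = 0.000183) fell. Of 5 ketone body enzymes 2 fell and 1 rose in Cisplatin against Normal (60% called, against 54.5% of all genes). In RP against Cisplatin 1 fell and 1 rose (40%, against 48.8%). Oxct1, which activates ketone bodies for burning, had means of 395 CPM in RP, 149 CPM in Cisplatin and 663 CPM in Normal (-2.15 ± 0.20 in Cisplatin against Normal, adjusted p = 1.38e-06). Bdh1, which oxidises hydroxybutyrate, fell by 2.68 ± 0.44 on the log2 scale (adjusted p = 0.000199), and the thiolase Acat1 rose by 0.45 ± 0.14 (adjusted p = 0.0145).

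Of 15 regulators, 8 rose and 5 fell in Cisplatin against Normal (86.7% called, against 54.5% of all genes; median 0.60), and 7 fell and 4 rose in RP against Cisplatin (73.3%, against 48.8%). The uncoupling protein gene Ucp3 rose by 1.95 ± 0.20 (adjusted p = 4.26e-06), the nuclear receptor gene Esrra by 1.12 ± 0.13 (adjusted p = 1.12e-05) and Foxo1, a transcription factor gene of fasting, by 1.71 ± 0.23 (adjusted p = 3.08e-05) in Cisplatin against Normal. Rxrg, an RXR gene, fell by 2.51 ± 0.20 on the log2 scale (adjusted p = 4.66e-07), with means of 39.5 CPM in RP, 6.98 CPM in Cisplatin and 39.5 CPM in Normal. The other regulators called lower in Cisplatin against Normal were Ppargc1a (-1.55 ± 0.23, adjusted p = 8.81e-05), Ppargc1b (-0.89 ± 0.22, adjusted p = 0.00318), Pparg (-1.60 ± 0.41, adjusted p = 0.00454) and Ppara (-0.71 ± 0.28, adjusted p = 0.0477). Of the PPAR genes, Ppard rose (0.86 ± 0.24, adjusted p = 0.00698). Rxra, the more abundant RXR gene, had means of 98.1 CPM in RP, 124 CPM in Cisplatin and 75 CPM in Normal; it rose by 0.73 ± 0.13 in Cisplatin against Normal (adjusted p = 0.000386) and fell by 0.34 ± 0.13 on the log2 scale in RP against Cisplatin (adjusted p = 0.0425). In RP against Normal, edgeR called 0 genes of these 4 lists, against 0.505% of all genes. The RP and Normal libraries did not overlap for 2 of 5 ketone body enzymes and 3 of 15 regulators, against 19.2% of all genes. This held for 0 of 14 genes of lipid delivery, storage and transfer and 1 of 17 other oxidation enzymes. The 2 ketone body enzymes were Bdh1 (-1.71 ± 0.41, adjusted p = 0.0953) and Oxct1 (-0.75 ± 0.19, adjusted p = 0.112).

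**Figure D4:**
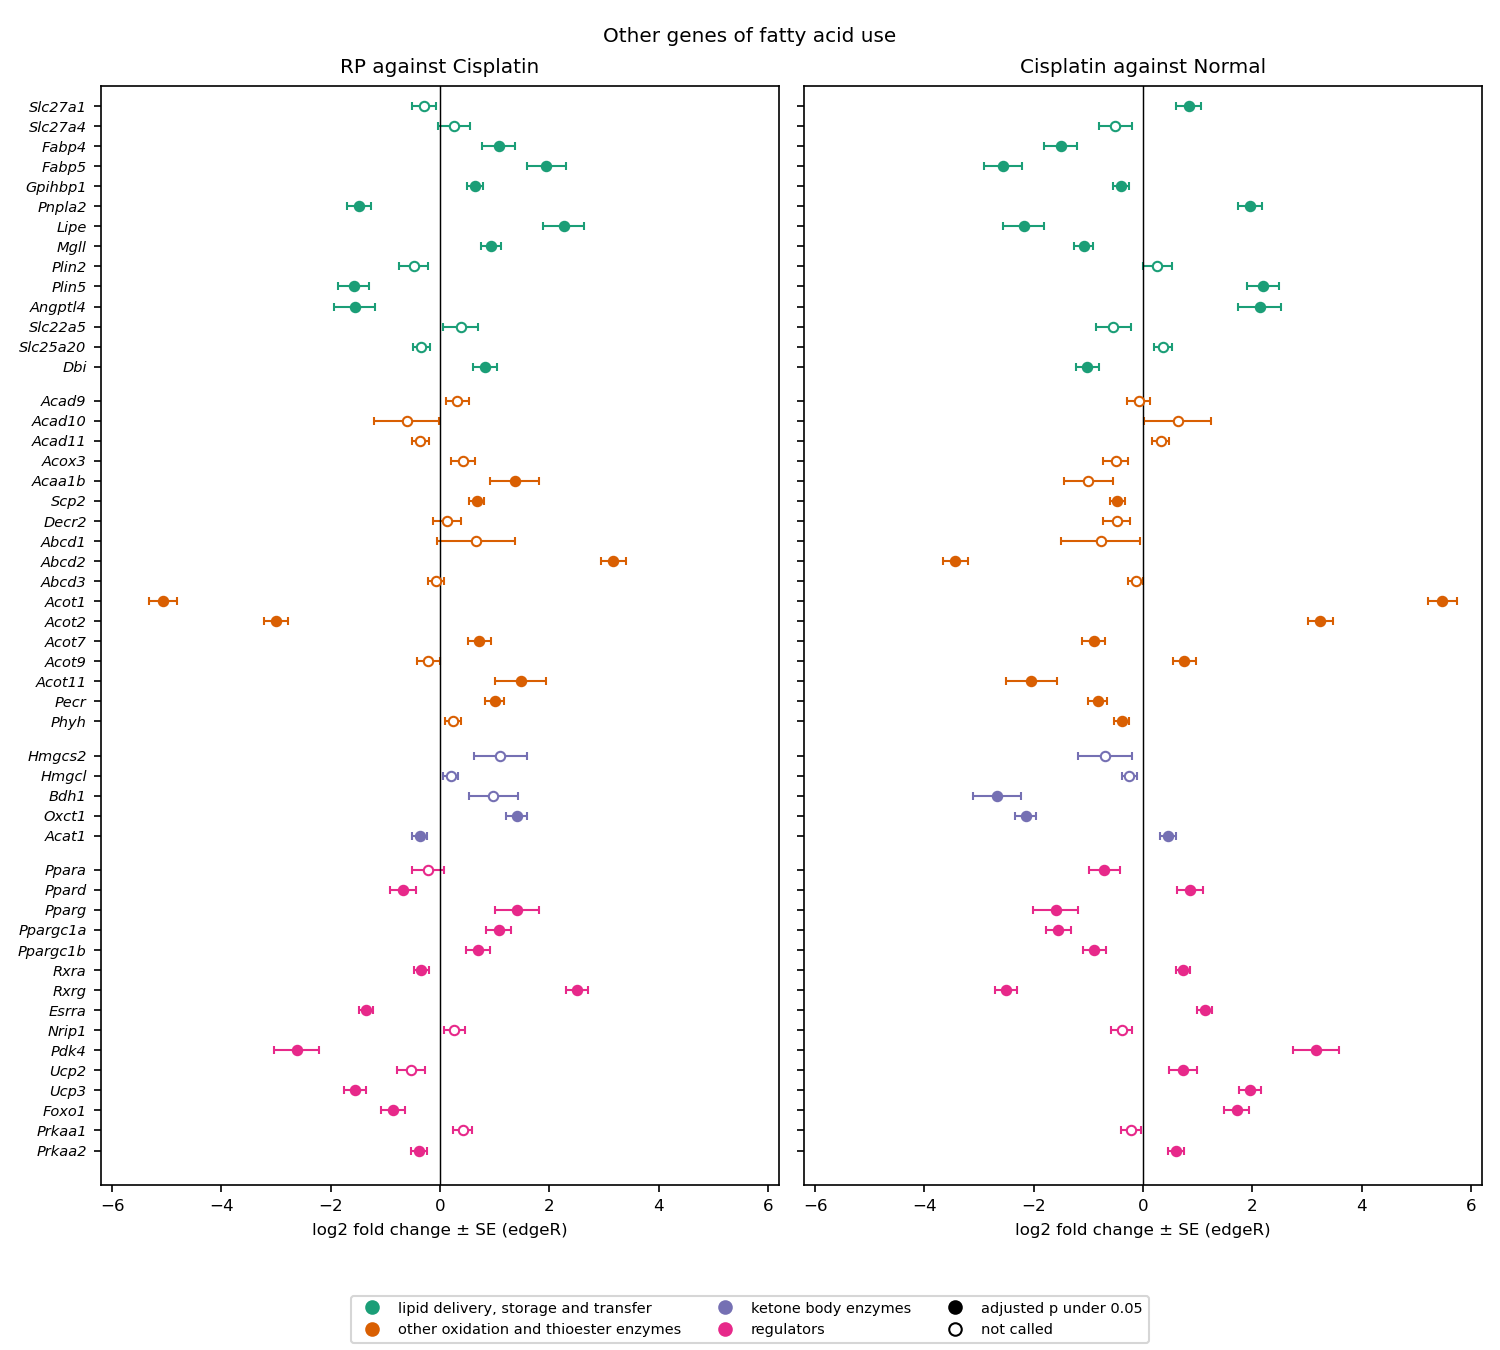
Log2 fold change ± SE of the other genes of fatty acid use in 4 lists, with RP against Cisplatin on the left and Cisplatin against Normal on the right; filled points are called at an adjusted p under 0.05. Acot1 and Acot2 lie farthest to the right and Abcd2 farthest to the left in Cisplatin against Normal.

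Other cell types and fibre types differed between the same libraries, and in whole muscle fewer cells of a type and less RNA per cell cannot be told apart. All 6 adipocyte markers fell in Cisplatin against Normal and rose in RP against Cisplatin, with sums of 912 to 1185 CPM in RP, 52.2 to 238 CPM in Cisplatin and 226 to 1678 CPM in Normal. Adipocytes also express Lpl, Cd36, Acsl1, Fabp4, Pnpla2 and Lipe, and of these Fabp4 (-1.51 ± 0.30, adjusted p = 0.000902) and Lipe (-2.19 ± 0.38, adjusted p = 0.000289) fell in Cisplatin against Normal, as the adipocyte markers did, Lpl and Pnpla2 rose, and Cd36 and Acsl1 were not called. In RP against Cisplatin, Fabp4 (1.07 ± 0.30, adjusted p = 0.00961) and Lipe (2.26 ± 0.38, adjusted p = 0.000285) rose with the markers, while Lpl and Pnpla2 fell. The 8 endothelial markers summed to 346 to 455 CPM in RP, 306 to 397 CPM in Cisplatin and 403 to 470.2 CPM in Normal, with 4 lower and 2 higher in Cisplatin against Normal. All 8 slow fibre markers were called lower in Cisplatin against Normal (median -2.71) and 0 of 8 were called in RP against Cisplatin, and their level varied widely within Normal: they summed to 357 to 661 CPM in RP, 115 to 593 CPM in Cisplatin, and 2333, 345 and 4319 CPM in Normal. Normal replicate 3, the highest in slow fibre markers, was also the highest of the 3 Normal libraries for most members. The other 2 Normal libraries did not keep this order. Normal replicate 1 exceeded Normal replicate 2 in slow fibre markers (2333 against 345 CPM). It was the lowest Normal library for 20 members, against 10 for Normal replicate 2. In RP the slow fibre sums were 357, 591 and 661 CPM in replicates 1, 2 and 3. RP replicate 1 was the lowest RP library for 22 members and RP replicate 3 the highest for 18. In Cisplatin the sums were 593, 115 and 137 CPM, and Cisplatin replicate 2 was the highest Cisplatin library for 16 members. Macrophage markers summed to 60.4 to 98.8 CPM in RP, 13.8 to 44.5 CPM in Cisplatin and 151 to 194 CPM in Normal, and the 4 fibroblast markers to 1743 to 2385 CPM in RP, 306 to 717 CPM in Cisplatin and 2349 to 2959 CPM in Normal. Erythroid markers summed to 64.9 to 410.0 CPM in RP, 34.0 to 60.4 CPM in Cisplatin and 4158 to 8991 CPM in Normal. No marker of these lists was at 0 in every library. The part of these differences in the members' changes was not tested.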

How the data were processed

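Each sample's deposited file pairs 23282 gene symbols with raw counts made by the authors. Per the labels' protocols, 500 ng of Trizol-extracted total RNA went into each QuantSeq library; per the submitters' processing notes, Bowtie2, edgeR and the mm10 build were used, while the sources used here give no counting program, strand setting or annotation. Rows that share a symbol (79 rows, 35 symbols) were summed to 23238 symbols. Library totals were 8196030 to 10678342 counts, and precision rests on the spread between libraries as well as on this depth.

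From the counts, edgeR 4.0.16 in R 4.3.3 (filterByExpr by group, TMM, glmQLFit on all 9 libraries, glmQLFTest) was run for 3 comparisons, with p adjusted over all 12859 genes. SEs are the log2 fold change over the square root of F. Members, lists, motifs and tests were chosen with earlier results of these data known. Values per library are given for members called with an absolute log2 change of at least 1 and for 12 pathway genes, and up to 4 called genes per other list are named. A gene of the other oxidation list is not reported here and is left out of its counts. Acaa2, Hadh, the ratios, Eci3, Acaa1b, Dvl2, Zcchc17 and values of Rxra, Ppara, Ppard, Pparg, Ppargc1a, Ppargc1b, Fabp4 and Lipe were added beyond that rule, with values known. Alternatives were RLE or library-size scaling, leaving out Rn45s, no filter, a floor of 5 CPM in 3 or more libraries, the tools DESeq2 1.42.0 and limma-voom (limma 3.58.1), fits of the compared groups alone, a replicate block and leaving out each library. Chi-square per degree of freedom between replicates was 11.3 to 28.9, and no tables were identical. The fit was tested on simulated data of 12866 genes, with far fewer genes changed than were called here. At an absolute log2 change of 1 it recovered 32 of 50 changed genes in Cisplatin against Normal. The same size gave 73 of 100 in RP against Cisplatin and 33 of 50 in RP against Normal. Thus a gene not called may still have changed. Ends of transcripts (300 bases) were aligned to GENCODE M21 transcripts with blastn at 95% identity or more over at least 75 bases.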

Additional observations from a re-analysis of the deposited data

How the results depend on the processing

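In Cisplatin against Normal, 13 of 19 called members (10 higher and 3 lower) kept their call in all 15 alternatives, as did 10 of 14 (3 higher and 7 lower) in RP against Cisplatin. No member reversed a called direction. Across the runs that left out 1 library each, members higher in Cisplatin against Normal numbered 10 to 19 and members lower 3 to 5; in RP against Cisplatin they numbered 3 to 4 and 8 to 13. All genes called numbered 6123 to 6627 in Cisplatin against Normal and 5211 to 5980 in RP against Cisplatin. In RP against Normal, 0 members were called without any 1 library, and all genes called numbered 22 to 116, against 65 with all libraries (24 higher and 41 lower, or 36 higher and 24 lower with library size alone). There, 1 member was called higher with library size alone, 1 without a filter (293 genes called) and 2 with DESeq2 (229 genes called). Library size alone moved the median of all genes from 0.07 to 0.21 in RP against Cisplatin and left 4 members higher and 8 lower. The cause of these changes was not tested. Replicate numbers did not clearly pair the samples across the 3 groups. Of 9 same-numbered pairs, 2 had a correlation over 0.1 (range -0.12 to 0.16), and 0 libraries correlated best with their own number in both other groups. Both pairs over 0.1 were in RP against Cisplatin (replicates 2 at 0.16 and replicates 3 at 0.15). With 3 libraries per group these correlations cannot exclude a pairing. With the replicate block, 15 members were higher and 6 lower in Cisplatin against Normal, and 11 lower and 3 higher in RP against Cisplatin. The members it added were Fabp3 (adjusted p = 0.0162) and Cpt1b (adjusted p = 0.0424). Depth limits Ehhadh, with 5 to 30 counts per library, and Acsl5.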
